A study of Mus musculus with 4 samples.

Results

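The 10 stromal niche genes described here form 4 families: 3 WNT ligands (Wnt2b, Wnt4 and Wnt5a), 3 R-spondins (Rspo1, Rspo2 and Rspo3), the BMP antagonist Grem1 and 3 BMP ligands (Bmp2, Bmp4 and Bmp5). They were taken by symbol from the deposited table of 53819 gene symbols, and 10 of 10 were found. RNA sequencing was done on samples labelled as primary colonic eosinophils, which are granulocytes of the intestinal wall, from wild-type C57Bl/6 mice. Controls received water, and the treated mice were given 3% dextran sulfate sodium (DSS), which damages the epithelium of the colon and causes colitis. Each group had 2 libraries. The sources used here do not state how the cells were isolated, how pure they were or whether mice were pooled.

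In the colon, epithelial stem cells at the crypt base are maintained by WNT signals from mesenchymal cells beneath the epithelium. R-spondins amplify the WNT signal by binding LGR receptors and removing the ubiquitin ligases RNF43 and ZNRF3, which otherwise clear WNT receptors from the cell surface. BMP ligands act in the opposite sense and favour differentiation towards the crypt top, and gremlin 1, the product of Grem1, binds BMP ligands and keeps their activity low around the crypt base. In the gut these genes are known chiefly from fibroblasts, telocytes and smooth muscle.

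The libraries held RNA of many cell types. Total counts ran from 30985905 to 34126329 per library. The 13 fibroblast and telocyte markers summed to 2711 and 5330 CPM (reads scaled to a common library size after TMM adjustment, edgeR's scaling method) in water replicates 1 and 2, against 4065 and 7793 CPM in DSS replicates 1 and 2. The 6 eosinophil markers summed to 2.55 and 28.4 CPM in water against 46.9 and 126 CPM in DSS. Il5ra, Epx and Ear6 had 0 reads in water replicate 1, Ear6 had 0 in water replicate 2, and Epx and Ear6 had 0 in DSS replicate 1. Where Epx was found, it had 14 reads in water replicate 2 and 12 in DSS replicate 2. Ear6 had 54 reads in DSS replicate 2, and Il5ra had 100 in water replicate 2 and 99 and 452 in DSS. The other markers of this list were found in every library. Siglecf had 28 and 419 reads in water against 299 and 1269 in DSS, and Ccr3 had 4 and 413 against 542 and 2350. Prg2 had 54 and 26 reads in water against 319 and 300 in DSS. The 6 epithelial markers summed to 4949 and 3210 CPM in water against 1920 and 4573 CPM in DSS. The 6 prostate and seminal tract markers summed to 282 and 177 CPM in water against 8.26 and 18.4 CPM in DSS, where Pbsn and Msmb had 0 reads in both libraries. The 6 pancreatic acinar markers summed to 6967 CPM in water replicate 1 and to between 0 and 1.46 CPM in the other libraries. The 6 neutrophil markers summed to 39.3 and 151 CPM in water against 1133 and 1439 CPM in DSS, and the 6 B cell and plasma cell markers reached 36187 CPM in DSS replicate 1 against 6014 to 7467 CPM elsewhere. In such bulk samples, fewer cells of a type and less RNA per cell cannot be told apart.

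The comparison asked how the niche genes differed between DSS and water. Grem1 and Rspo3 had higher levels in both DSS libraries than in both water libraries, with 2.46-fold and 2.47-fold differences, and Bmp2 had lower levels, at 0.490 of the water level. None of the 3 passed the test across all genes. Of the 10 genes, 9 passed the filter on low counts and were tested, and Rspo2 did not. The tests used read counts and pooled the spread across genes. edgeR's quasi-likelihood test called 0 of the 9 at a Benjamini-Hochberg adjusted p under 0.05, where it called 0.016% of 18788 genes, and DESeq2 called 0 of the 9, against 2.55% of all genes. At an unadjusted p under 0.05 edgeR had 1 of the 9, Bmp2, against 8.45% of all genes. The groups did not overlap for 3 of the 9 tested genes, against 39.5% of all tested genes. Of the 9, 2 were apart with DSS higher, against 20.8% of all tested genes, and 1 with DSS lower, against 18.7%. These shares are near the background. The median log2 fold change was -0.09 for the 9 genes and -0.01 for all genes, and the median size regardless of sign was 0.80 and 0.38.

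**Figure D1:**
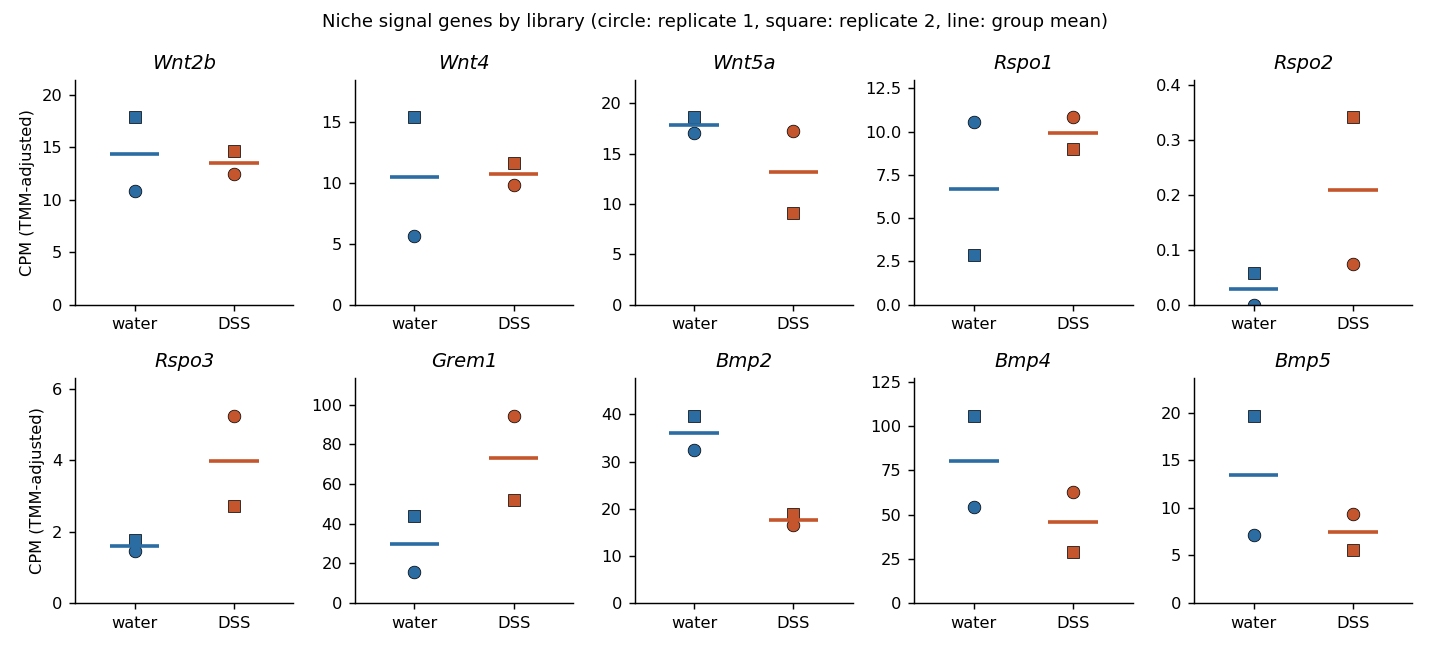
Level of each niche gene in CPM (linear axes from 0, a separate scale per gene) in the 2 water and 2 DSS libraries, with circles for replicate 1, squares for replicate 2 and lines for group means. Grem1, Rspo3 and Bmp2 are the tested genes whose groups do not overlap, for example 32.4 and 39.8 CPM against 16.5 and 18.9 CPM for Bmp2.

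Of the WNT ligands, Wnt2b, which encodes a ligand of the β-catenin pathway, lies on chromosome 3 (104945272 to 104961921, minus strand, GRCm38). There were 366 and 611 reads in water replicates 1 and 2 against 333 and 514 in DSS replicates 1 and 2, or 10.8 and 17.8 CPM against 12.4 and 14.6 CPM. Both DSS libraries lay between the water libraries. The difference on the log2 scale was -0.09 (SE 0.36, edgeR adjusted p = 0.977).

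Wnt4, a ligand whose signalling depends on the cell type, lies on chromosome 4 (137277489 to 137299726, plus strand). It had 190 and 528 reads in water against 264 and 408 in DSS, or 5.63 and 15.4 CPM against 9.82 and 11.6 CPM. The DSS libraries again lay inside the range of the water libraries. Its log2 fold change was 0.03 (SE 0.52, edgeR adjusted p = 0.996), and its sign turned with upper-quartile scaling (-0.01), without water replicate 1 (-0.56) and without DSS replicate 2 (-0.10).

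Wnt5a, the best known ligand of β-catenin-independent signalling, lies on chromosome 14 (28504750 to 28527448, plus strand). It had 577 and 638 reads in water against 463 and 319 in DSS, or 17.1 and 18.6 CPM against 17.2 and 9.08 CPM. DSS replicate 2 was lower than the other 3 libraries, which were alike. DSS over water, the log2 fold change was -0.44 (SE 0.38, edgeR adjusted p = 0.823) and -0.05 without DSS replicate 2. The antisense gene Gm2670 overlaps 358 exonic bases of Wnt5a and had 37, 19, 4 and 4 reads in the same libraries. The sources used here do not state whether the counting used strand.

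Among the R-spondins, Rspo1 (chromosome 4, 124986430 to 125009099, plus strand) had 356 and 98 reads in water against 291 and 315 in DSS. These were 10.6 and 2.86 CPM against 10.8 and 8.96 CPM, so water replicate 2 was low and the other 3 libraries were alike. Its log2 fold change was 0.56 (SE 0.63, edgeR adjusted p = 0.871), with 1.75 without water replicate 1 and -0.09 without water replicate 2.

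Rspo3 (chromosome 10, 29452416 to 29535867, minus strand), which in mice is made by stromal cells near the crypt base, had 49 and 60 reads in water against 141 and 95 in DSS. The levels were 1.45 and 1.75 CPM in water against 5.25 and 2.70 CPM in DSS, a mean of 1.60 ± 0.212 CPM (SD, n = 2) against 3.98 ± 1.80 CPM (SD, n = 2). Neither DSS library fell in the range of water, and DSS replicate 1 was the highest. The log2 fold change was 1.31 (SE 0.59, edgeR adjusted p = 0.645, DESeq2 adjusted p = 0.551), and 0.74 without DSS replicate 1. The antisense gene Gm48159, which shares 404 exonic bases with Rspo3, had 0 reads in all 4 libraries.

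Reads of Rspo2 (chromosome 15, 43020794 to 43170826, minus strand) numbered 0 and 2 in water against 2 and 12 in DSS. The exact 95% Poisson intervals, which cover counting error only, were 0.242 to 7.22 reads in each library with 2 reads and 6.20 to 21.0 reads in DSS replicate 2. For the count of 0 in water replicate 1 the interval ran from 0 to 3.69 reads. A set floor of 3 counts equals 0.0889 CPM in that library. The interval of DSS replicate 2 lay above 3 counts and overlapped those of the libraries with 2 reads.

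Per length, the R-spondins were unequal. In RPKM (CPM per kilobase of exon), Rspo1 was at 5.44 and 1.48 in water against 5.59 and 4.63 in DSS. Rspo3 was at 0.470 and 0.567 in water against 1.70 and 0.875 in DSS, below Rspo1 in every library. Rspo3 made up 7.95% and 27.6% of the summed R-spondin RPKM in water against 23.3% and 15.7% in DSS. These shares overlapped between the groups, so the higher Rspo3 level in DSS did not come with a share outside the range of water.

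Grem1 lies on chromosome 2 (113746164 to 113758646, minus strand). Its reads numbered 529 and 1507 in water against 2540 and 1833 in DSS, or 15.7 and 44.0 CPM against 94.5 and 52.2 CPM. Both DSS libraries were above both water libraries, but water replicate 2 was near DSS replicate 2. The means were 29.8 ± 20.0 CPM (SD, n = 2) and 73.3 ± 30.0 CPM (SD, n = 2). The log2 fold change was 1.30 (SE 0.55), with adjusted p = 0.609 by edgeR and 0.239 by DESeq2. The value depended on single libraries, at 0.70 and 2.23 when water replicate 1 or 2 was left out, and 0.78 and 1.66 when DSS replicate 1 or 2 was left out. Without water replicate 2 DESeq2 called Grem1 (2.23 on the log2 scale, adjusted p = 0.00481) and not when any other library was left out. edgeR called it without a count filter (adjusted p = 0.00800), a setting in which 1051 genes were called.

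Bmp2 (chromosome 2, 133552159 to 133562885, plus strand) encodes a BMP ligand that in the gut is known from both epithelial and stromal cells. It had 1094 and 1362 reads in water against 443 and 664 in DSS, or 32.4 and 39.8 CPM against 16.5 and 18.9 CPM. The replicates lay close together and the groups apart, with means of 36.1 ± 5.19 CPM (SD, n = 2) and 17.7 ± 1.70 CPM (SD, n = 2). edgeR gave a log2 fold change of -1.03 (SE 0.27, unadjusted p = 0.00854, adjusted p = 0.471, DESeq2 adjusted p = 0.163). Of the 9 genes this difference moved least when a library was left out, between -1.20 and -0.87, and it was not called in any of these fits.

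Bmp4 (chromosome 14, 46383520 to 46390669, minus strand), a BMP ligand of the mesenchyme under the epithelium, had 1827 and 3634 reads in water against 1693 and 1012 in DSS. The levels were 54.2 and 106 CPM against 63.0 and 28.8 CPM, so DSS replicate 1 lay inside the water range and DSS replicate 2 below it. For Bmp4 the log2 fold change was -0.80 (SE 0.49, edgeR adjusted p = 0.743), and it moved between -1.49 without DSS replicate 1 and -0.23 without water replicate 2. It was -1.25 without water replicate 1 and -0.35 without DSS replicate 2.

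Bmp5 (chromosome 9, 75775364 to 75900310, plus strand), which in mouse gut is known from Foxl1-positive telocytes, had 241 and 675 reads in water against 252 and 194 in DSS. At 7.14 and 19.7 CPM against 9.38 and 5.52 CPM, water replicate 2 was the high library and the groups overlapped. For Bmp5 the log2 fold change was -0.85 (SE 0.56, edgeR adjusted p = 0.765), and it was 0.07 without water replicate 2. The antisense gene Gm26903, which shares 1878 exonic bases with Bmp5, had 8, 116, 18 and 10 reads in the same order and was also highest in water replicate 2. For Bmp4 the opposite-strand gene Gm15217 overlaps 89 exonic bases and had 6, 17, 0 and 1 reads.

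**Figure D2:**
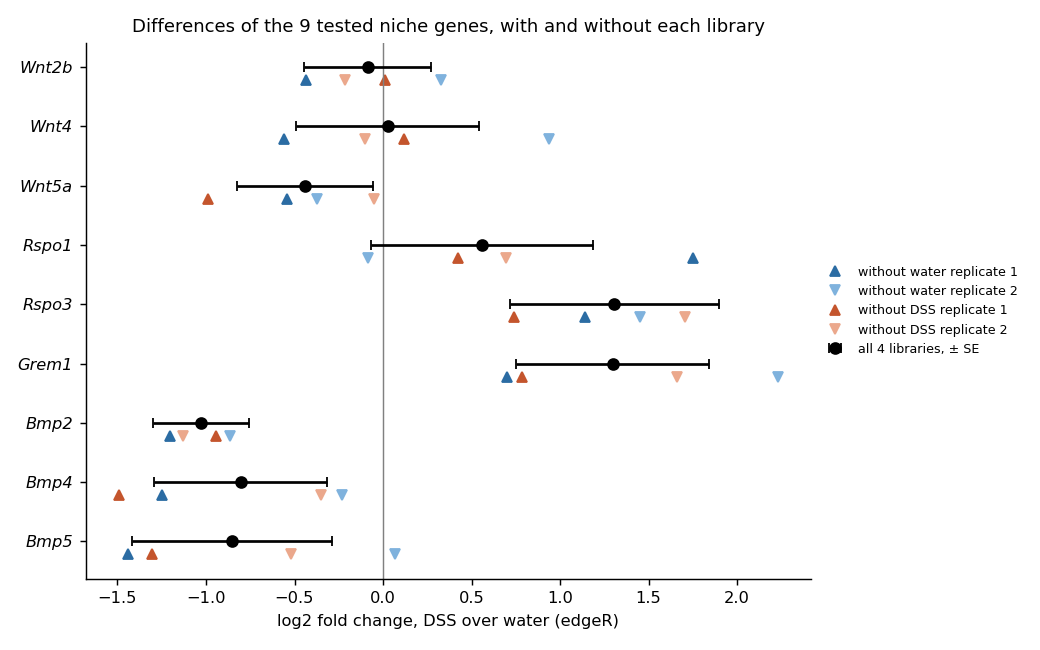
Log2 fold change of DSS over water for the 9 tested niche genes, with black points and bars for edgeR's estimate ± SE from all 4 libraries and triangles for the fits that left out 1 library each. Rspo3, Grem1, Bmp2, Bmp4 and Wnt5a stay on one side of 0 in these fits, and Wnt2b, Wnt4, Rspo1 and Bmp5 do not.

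The levels of the 10 niche genes were ranked within each library in RPKM. Bmp4 ranked first among the 10 genes in every library, at 24.1 and 47.2 RPKM in water against 28.0 and 12.8 RPKM in DSS. Rspo2 ranked last and Rspo3 next to last in every library. Bmp2 held rank 2 in both water libraries, at 9.12 and 11.2 RPKM, and ranks 4 and 3 in DSS, at 4.64 and 5.32 RPKM. Grem1 held ranks 4 and 3 in water, at 3.78 and 10.6 RPKM, and rank 2 in both DSS libraries, at 22.8 and 12.6 RPKM. Wnt2b held rank 5 throughout. In DSS replicate 2 Grem1 and Bmp4 were at nearly the same level. Rspo1 changed rank most, from 8 in water replicate 2 to 3 in water replicate 1, 3 in DSS replicate 1 and 4 in DSS replicate 2. Bmp5 held rank 4 in water replicate 2 and rank 7 elsewhere. Wnt4 and Wnt5a lay between ranks 6 and 8, and these 4 genes and Wnt2b were under 6 RPKM in every library.

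The antagonist and its ligands were also compared within each library, which removes the scaling between libraries. The pair was chosen after the values were seen, so no test was made. Bmp2, Bmp4 and Bmp5 together stood at 34.98 and 63.3 RPKM in water against 34.99 and 19.5 RPKM in DSS, so replicate 1 of DSS was level with replicate 1 of water. The ratio of Grem1 to this sum was 0.108 and 0.168 in water replicates 1 and 2 against 0.651 and 0.645 in DSS replicates 1 and 2. Both DSS libraries were thus above both water libraries and near each other. With the longest transcript as the length, the ratio was 0.102 and 0.157 in water against 0.606 and 0.607 in DSS. At this group size the smallest p of an exact permutation test (two-sided) is 0.333.

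**Figure D3:**
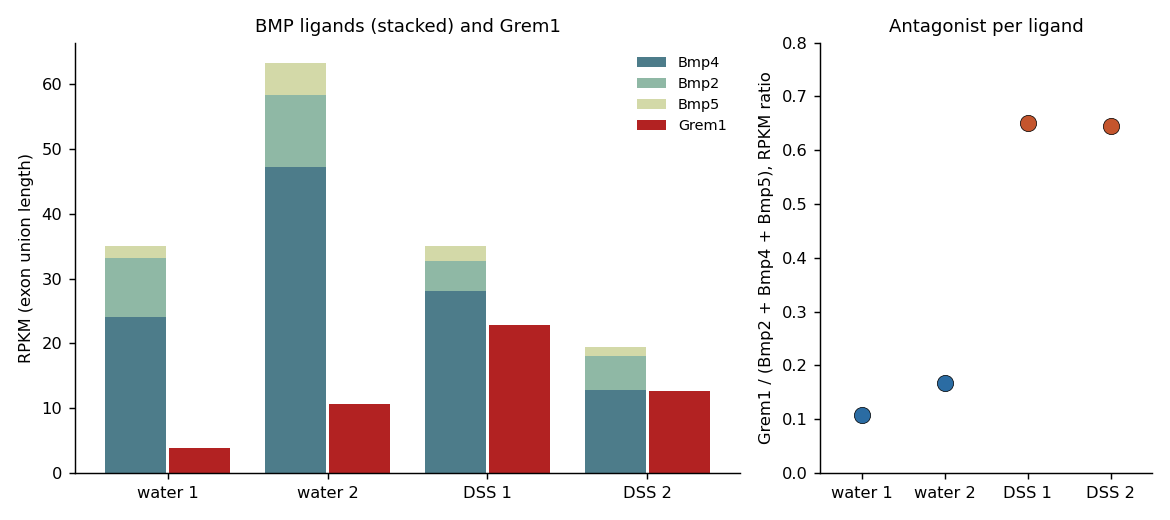
Left, RPKM in each library of Bmp4, Bmp2 and Bmp5 (stacked bars from 0) and of Grem1 (separate bar). Right, the ratio of Grem1 to the summed RPKM of the 3 BMP ligands, at 0.108 and 0.168 for water against 0.651 and 0.645 for DSS.

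The upstream sequences of Grem1, Bmp4 and Bmp5 are shown because these genes are part of the antagonist and ligand comparison and differ in base composition. Of the 10 genes, 6 matched the RefSeq promoter table (GRCm38.p6), and Bmp2, Wnt5a, Rspo2 and Rspo3 did not. The 250 bases before each RefSeq start were searched on both strands for the CCAAT box (CCAAT), the GC box (GGGCGG), the TATA box (TATAAA) and the core of TCF/LEF sites (CTTTGA), which is bound by the transcription factors of the β-catenin pathway. Capitals mark matches on either strand, and the sequences run 5′ to 3′ in the direction of transcription. Grem1 is from chr2:113758649-113758898 (minus strand), Bmp4 from chr14:46390670-46390919 (minus strand) and Bmp5 from chr9:75775115-75775364 (plus strand).
Grem1: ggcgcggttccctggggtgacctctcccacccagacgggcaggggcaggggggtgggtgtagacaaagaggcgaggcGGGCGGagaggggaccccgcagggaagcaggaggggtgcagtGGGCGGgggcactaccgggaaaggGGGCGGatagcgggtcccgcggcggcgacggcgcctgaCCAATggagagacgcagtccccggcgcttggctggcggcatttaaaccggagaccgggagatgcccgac
Bmp4: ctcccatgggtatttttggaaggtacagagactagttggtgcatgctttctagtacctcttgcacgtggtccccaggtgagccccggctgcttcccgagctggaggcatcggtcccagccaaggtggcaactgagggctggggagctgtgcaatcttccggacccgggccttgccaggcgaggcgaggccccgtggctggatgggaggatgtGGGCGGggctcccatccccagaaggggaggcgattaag
Bmp5: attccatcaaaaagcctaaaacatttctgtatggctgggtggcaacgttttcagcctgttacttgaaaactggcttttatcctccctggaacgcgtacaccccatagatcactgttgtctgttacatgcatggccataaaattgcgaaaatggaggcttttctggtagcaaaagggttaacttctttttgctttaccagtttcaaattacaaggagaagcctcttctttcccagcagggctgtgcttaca

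The Grem1 window held 3 GC boxes and 1 CCAAT box at 72.0% G and C. The Bmp4 window held 1 GC box at 63.2% G and C, and the Bmp5 window held none of the 4 motifs at 42.8%, against a median of 52.4% over 32851 promoters. In windows of the same length, 32.7% of all promoters held a GC box, 33.8% a CCAAT box, 12.4% a TATA box and 13.8% a TCF/LEF core. Of the other matched genes, the Wnt2b window held 3 GC boxes and 1 CCAAT box, the Wnt4 window 8 GC boxes and the Rspo1 window none of the 4 motifs. None of the 6 windows held a TATA box or a TCF/LEF core in these letters. A match is a string of letters and says nothing of binding.

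Because the summed stromal markers differed between libraries, each gene was also expressed per 1000 reads of the 13 fibroblast and telocyte markers. This is a description with no test. Bmp4 was at 19.97 and 19.91 per 1000 in water, so its difference between the water libraries in CPM was not seen on this scale, and at 15.5 and 3.70 per 1000 in DSS. Bmp2 was at 12.0 and 7.46 per 1000 in water against 4.06 and 2.42 in DSS, and Bmp5 at 2.63 and 3.70 against 2.31 and 0.708. All 3 BMP ligands were lower in both DSS libraries than in both water libraries by this measure, as was Wnt2b, at 4.001 and 3.35 against 3.05 and 1.88 per 1000. Of the 9 tested niche genes 4 were thus apart with DSS lower and 0 with DSS higher, where 24.3% of all tested genes were apart with DSS lower and 4.79% with DSS higher on this scale. The marker sum itself was largest in DSS replicate 2, which lowers every gene there by this measure. It was 91479 and 182528 reads in water against 109241 and 273845 in DSS, and most of these were collagen reads. Without the collagens the sum was 29691 and 47068 reads in water against 28229 and 31465 in DSS, largest in water replicate 2. The sum of all 13 is thus no plain measure of the stromal share.

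Grem1 was at 5.78 and 8.26 per 1000 in water against 23.3 and 6.69 in DSS, and there the groups overlapped. The Rspo3 groups overlapped as well, at 0.536 and 0.329 per 1000 in water against 1.29 and 0.347 in DSS. Collagen genes are part of the marker list, and Col1a1 stood at 320 and 751 CPM in water against 508 and 1703 CPM in DSS. Per 1000 reads of the 9 markers that are not collagens, Grem1 was at 17.8 and 32.0 in water against 89.98 and 58.3 in DSS, and Bmp2 at 36.8 and 28.9 against 15.7 and 21.1, with no overlap for either. Rspo3 was at 1.65 and 1.27 against 4.99 and 3.02, again without overlap. Bmp4 was at 61.5 and 77.2 against 59.97 and 32.2, and the Bmp5 groups overlapped, at 8.12 and 14.3 against 8.93 and 6.17. Without the collagens 26.3% of all tested genes were apart with DSS higher and 7.97% with DSS lower, and of the 9 niche genes 2 and 2. The ratio of the DSS mean to the water mean turned from 0.670 to 1.11 for Wnt2b, from 0.786 to 1.27 for Wnt4 and from 0.861 to 1.44 for Rspo1 when the collagen genes were left out.

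Within the marker list, 6 of 13 genes lay above 0 and 7 below, and edgeR called none. Foxl1, the transcription factor gene that marks subepithelial telocytes, was at 4.80 and 6.69 CPM in water against 1.12 and 1.11 CPM in DSS. DESeq2 called it (log2 fold change -2.38, SE 0.64, adjusted p = 0.0138) and edgeR did not (adjusted p = 0.401), and DESeq2 called it in 0 of the 4 fits made without a library, where its log2 fold change stayed between -2.60 and -2.10. The general fibroblast genes Pdgfra, at 45.1 and 106 CPM against 96.2 and 67.4 CPM, and Lum, at 68.6 and 121 CPM against 100.1 and 94.2 CPM, overlapped between the groups. The 6 smooth muscle markers all lay below 0, with 1511 and 2260 CPM summed in water against 1231 and 1357 CPM in DSS, and edgeR and DESeq2 called none of them. Whether these cell types differed in number, and whether that plays a part in the niche gene values, was not tested.

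The other genes of the 2 pathways were taken from 8 lists with 85 distinct genes, of which 67 were tested. edgeR called 0 of them and DESeq2 called 4, Sfrp2 higher and Lgr5, Axin2 and Ascl2 lower in DSS, where DESeq2 called 1.65% of all genes higher and 0.895% lower. On data simulated from these libraries with edgeR's estimates of the spread, DESeq2 made more false calls than its threshold allows. This setting may favour edgeR and held only genes that passed edgeR's filter, so it cannot rank the tools on these data. Calls by DESeq2 alone are still to be read with caution.

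Of the other WNT ligands, 7 of 16 were tested, 3 above and 4 below 0, and their median was -0.57 on the log2 scale. Wnt11, which had the highest mean CPM of the list, was at 4.65 and 50.7 CPM in water against 28.0 and 70.7 CPM in DSS. Wnt2 was at 1.93 and 1.28 CPM against 2.94 and 2.22 CPM, Wnt5b at 1.72 and 3.39 against 2.08 and 0.939 CPM, and Wnt9a at 1.90 and 4.79 against 1.45 and 1.59 CPM. None was called by either tool.

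Among receptors and their regulators, 18 of 20 were tested, 7 above and 11 below 0, with a median of -0.18. The WNT coreceptor genes Lrp5 (log2 fold change -0.13, SE 0.28) and Lrp6 (0.01, SE 0.30) and the receptor gene Fzd5 (0.12, SE 0.28) had differences under their SE. The R-spondin receptor gene Lgr4 was at 92.5 and 62.5 CPM in water against 38.7 and 73.2 CPM in DSS, with overlapping groups. Lgr5, both an R-spondin receptor and a WNT target that marks crypt base stem cells, had 331 and 92 reads in water against 0 and 18 in DSS.

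Lgr5 and 2 other WNT targets made up the lower calls. With DESeq2, Lgr5 differed by -4.58 on the log2 scale (SE 1.05, adjusted p = 0.00148; edgeR adjusted p = 0.505). Axin2, a feedback inhibitor of β-catenin, was at 28.3 and 16.03 CPM in water against 4.32 and 7.94 CPM in DSS (DESeq2 log2 fold change -1.86, SE 0.51, adjusted p = 0.0146; edgeR adjusted p = 0.471). Ascl2, a stem cell transcription factor gene, had 179 and 107 reads in water against 0 and 20 in DSS (DESeq2 log2 fold change -3.87, SE 1.09, adjusted p = 0.0190; edgeR adjusted p = 0.542).

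Not all of these calls were kept when 1 library was left out. Such a fit has 1 library in one group, which is assumed to vary like the other group, so a call can end through the smaller design alone. Lgr5 was not called without water replicate 1 (log2 fold change -3.38) or without water replicate 2 (-5.26), where its difference was larger than with all libraries. It was called without DSS replicate 1 (-3.60). Axin2 was called in 2 of 4 such fits and not without water replicate 1 (-1.40) or without DSS replicate 1 (-1.48). Ascl2 was not called without water replicate 1 (-3.45), water replicate 2 (-4.22) or DSS replicate 1 (-2.89). Without DSS replicate 2 both Lgr5 and Ascl2 were called, but the DSS group then had 0 reads of either gene, so no fold is given.

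Of the 9 tested WNT targets, 3 lay above and 6 below 0, with a median of -0.74. Tcf7, a transcription factor gene that T cells also express, was at 5.28 and 9.72 CPM in water against 32.7 and 15.8 CPM in DSS, and was not called (edgeR adjusted p = 0.492, DESeq2 adjusted p = 0.0561). The 6 T cell markers summed to 23.0 and 60.1 CPM in water against 105 and 55.6 CPM in DSS, with 5 of 6 above 0. The largest part of the sum was Cd4, at 14.6 and 48.6 CPM in water against 33.3 and 18.3 CPM in DSS. The groups overlapped for Cd4, and the other 5 were apart with DSS higher, against 20.8% of all tested genes. DESeq2 called 4 of the 6, where it called 1.65% of all genes higher, and edgeR called 0. The part of T cells in the Tcf7 values was not tested. Rnf43 was at 37.6 and 17.8 CPM against 17.0 and 16.1 CPM, and Znrf3 at 13.3 and 13.96 CPM against 30.6 and 13.3 CPM. The 6 epithelial markers, whose cells express Lgr5 and Ascl2, all lay below 0 with overlapping groups. DSS replicate 1, where Lgr5 and Ascl2 had 0 reads, had the lowest epithelial sum (1920 CPM). In DSS replicate 2 the sum was 4573 CPM, above the 3210 CPM of water replicate 2. Lgr5 was at 0.512 CPM in DSS replicate 2 against 2.69 CPM in water replicate 2, and Ascl2 at 0.569 against 3.12 CPM. The part of epithelial cells in these results was not tested.

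Of the secreted WNT inhibitors, 8 of 11 were tested, 4 above and 4 below 0. Sfrp2, a WNT-binding frizzled-related protein gene of fibroblasts, was at 2.22 and 0.993 CPM in water against 8.97 and 8.05 CPM in DSS. DESeq2 called it (log2 fold change 2.40, SE 0.61, adjusted p = 0.00716) and edgeR did not (adjusted p = 0.415). The DESeq2 call was kept in 1 of the 4 fits made without a library, without water replicate 1 (3.09). It ended without water replicate 2 (1.94), DSS replicate 1 (2.33) and DSS replicate 2 (2.50). Its relatives Sfrp1, at 43.3 and 87.8 CPM against 107 and 119 CPM, and Sfrp4, at 6.61 and 10.9 CPM against 17.2 and 21.9 CPM, also had both DSS libraries above both water libraries and were not called. Dkk3 was at 38.1 and 76.8 CPM in water against 33.2 and 40.7 CPM in DSS, and Sfrp5 at 5.45 and 4.15 CPM against 4.95 and 7.71 CPM.

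On the BMP side no gene of the other lists was called by either tool. Of the other BMP and R-spondin ligands, 5 of 9 were tested, with a median of -0.26. Bmp6 was at 15.98 and 26.2 CPM in water against 12.9 and 7.17 CPM in DSS (edgeR log2 fold change -1.08, SE 0.42, adjusted p = 0.574). Bmp7 was at 8.98 and 12.4 CPM against 8.41 and 4.10 CPM, and Bmp3 at 23.1 and 17.9 CPM against 10.5 and 38.6 CPM. Bmp8b had the largest difference of this list, in the other direction, at 0.771 and 0.467 CPM in water against 3.39 and 3.70 CPM in DSS (edgeR log2 fold change 2.51, SE 0.63, adjusted p = 0.471; DESeq2 adjusted p = 0.0510).

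Of the other BMP antagonists, 10 of 10 were tested, 3 above and 7 below 0, with a median of -0.40. Nbl1 was at 67.5 and 98.5 CPM against 52.1 and 40.6 CPM, Twsg1 at 53.6 and 95.0 CPM against 59.4 and 53.8 CPM, and Chrd at 10.8 and 12.2 CPM against 6.51 and 7.31 CPM. Whether Grem1 differs from these antagonists in its response was not tested.

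Over the 6 tested BMP receptor genes the median log2 fold change was 0.01. Bmpr1a (0.01, SE 0.28), Bmpr2 (0.07, SE 0.29), Acvr1 (0.01, SE 0.26) and Acvr2a (-0.07, SE 0.31) had differences well within their SE. Bmpr1b, a type I receptor gene outside the naming rule and chosen after its values were seen, was lower in both DSS libraries, at 2.37 and 4.44 CPM in water against 1.12 and 0.683 CPM in DSS, and was not called (edgeR log2 fold change -1.92, SE 0.67, adjusted p = 0.542; DESeq2 adjusted p = 0.242). The 7 BMP targets had a median of -0.07, and the groups did not overlap for 0 of the 7, against 39.5% of all tested genes. Id1, an immediate target of BMP signalling, was at 159 and 69.0 CPM in water against 36.7 and 78.3 CPM in DSS (edgeR log2 fold change -0.99, SE 0.53, adjusted p = 0.702). Id3 (-0.22, SE 0.32), Id2 (0.19, SE 0.42) and the inhibitory SMAD gene Smad7 (0.15, SE 0.26) had differences under their SE.

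**Figure D4:**
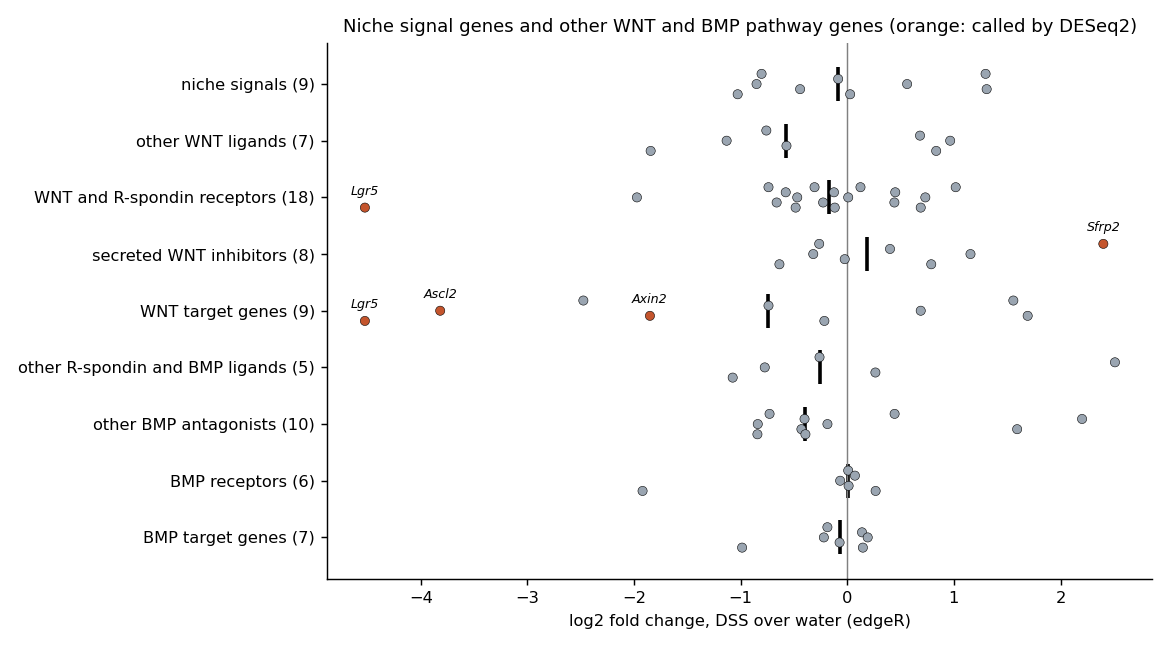
Log2 fold change of DSS over water (edgeR) for each tested gene of the niche signals and of the 8 other pathway lists, with the number tested in parentheses, a black line for the list median and orange points for genes called by DESeq2. Lgr5, which is in both the receptor and target lists, Ascl2 and Axin2 lie lowest among the calls and Sfrp2 is the call above 0.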

How the data were processed

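RNA was measured in 4 libraries, 2 in each group. Libraries were made from poly-A RNA captured on beads and primed with random hexamers, per the labels' protocols. The authors deposited raw read counts per gene symbol, 1 column per library, without normalization. Per the submitters' processing notes, the build was mm10 (GRCm38) and the tools included HISAT2 and STAR for which, as for featureCounts, HTSeq and DESeq2, no version or role is given. Coordinates and exon lengths came from GENCODE vM21 on GRCm38.

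Counts were filtered with filterByExpr (minimum count 10, minimum total 15), which left 18788 genes and 99.4% of counts, scaled by TMM and tested with edgeR 4.0.16's quasi-likelihood test (robust, group as the only term) in R 4.3.3. P-values were adjusted over all tested genes with the Benjamini-Hochberg method, and an adjusted p under 0.05 was a call. The SE is the log2 fold change divided by the root of the F statistic. DESeq2 1.42.0 and voom of limma 3.58.1 were alternatives. The tests were checked on data simulated from these libraries with edgeR's estimates of the spread of each gene, which may favour edgeR. There the share of false calls was near or somewhat above the threshold with edgeR and limma-voom and well above it with DESeq2.

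Separate mice are not stated for the 2 libraries of a group, so the p-values reflect the spread of these libraries, possibly only technical. Replicates were no duplicates (chi-square per degree of freedom 136 in water and 309 in DSS). Among counts of 1 to 10, between 70.5% and 73.2% were even in each library, so reads may not be independent and counting intervals may be too narrow. Genes and lists were chosen with earlier results of these data known. Named pathway genes were the 4 with the highest mean CPM of each list (not all are reported here) and any called by edgeR or DESeq2, and others were named after their values were seen.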

Additional observations from a re-analysis of the deposited data

How the results depend on the processing

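No niche gene was called by edgeR with DESeq2 size factors, upper-quartile scaling or a CPM filter (at least 1 in at least 2 libraries). The same held for edgeR without immunoglobulin, mitochondrial and rRNA genes, and without any 1 library. On all 4 libraries neither limma-voom nor DESeq2 called a niche gene. Without a count filter edgeR called 1, Grem1. DESeq2 also called Grem1 without water replicate 2, at a log2 fold change of 2.23. Over all genes edgeR called 3 genes. This count was 1051 without a count filter, 498 with DESeq2, 0 with limma-voom, and 3 to 196 without 1 library. Of the other pathway genes, 0 were called by edgeR, 4 by DESeq2 and 8 by edgeR without a count filter.

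Direction was kept in 109 of 117 comparisons of a niche gene with an alternative on the same side of the threshold, 1 gained a call and 7 turned. With upper-quartile scaling Wnt4 was at -0.015. Without 1 library, log2 fold changes ran from -0.44 to 0.33 for Wnt2b (0.01 without DSS replicate 1), -0.56 to 0.94 for Wnt4 (-0.10 without DSS replicate 2), -0.086 to 1.75 for Rspo1 and -1.44 to 0.065 for Bmp5. With the longest transcript as length, Wnt2b moved from 3.32 to 4.20 RPKM. Without collagen genes, the log2 ratio of DSS to water per stromal reads moved from -0.58 to 0.15 for Wnt2b, -0.35 to 0.34 for Wnt4 and -1.58 to -0.84 for Bmp2. The cause of these moves was not tested.

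The replicate numbers in the titles are not stated to pair libraries. With a replicate block edgeR called 0 genes over all and 0 niche genes. The deviations of same-numbered libraries correlated at -0.16 across genes, and a crossed block, chosen after seeing the data, called 44 genes and 0 niche genes. Depth limits statements on Rspo2, with at most 12 reads in a library.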

Other observations

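The 2 pathway genes given here lie outside the naming rule and were chosen after their values were seen. Their groups did not overlap, as for 39.5% of all tested genes. Fst, which encodes the activin and BMP antagonist follistatin, was at 1.19 and 0.818 CPM in water against 5.69 and 3.56 CPM in DSS (edgeR log2 fold change 2.20, SE 0.59, adjusted p = 0.471; DESeq2 adjusted p = 0.0645). Ror1, a receptor tyrosine kinase gene of the WNT5A pathway, was at 5.57 and 5.66 CPM in water against 11.3 and 11.5 CPM in DSS, with replicates close together (edgeR log2 fold change 1.02, SE 0.34, adjusted p = 0.534). Neither was called by edgeR or DESeq2. Of the 13 stromal markers, 3 were apart with DSS lower and 0 with DSS higher, against 18.7% and 20.8% of all tested genes. Besides Foxl1 these were Foxf2 and Dpt, named after their values were seen. Foxf2 was at 13.2 and 30.8 CPM in water against 9.82 and 11.4 CPM in DSS (edgeR adjusted p = 0.619). Dpt was at 169 and 245 CPM against 109 and 113 CPM (edgeR adjusted p = 0.564). DESeq2 did not call them either, and 6 of the 13 markers lay above 0.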
